A study of Mus musculus with 4 samples.

Results

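The 6 genes described here move calcium in and out of the cytosol of heart muscle cells: Atp2a2, Pln, Ryr2, Casq2, Slc8a1 and Cacna1c. They are 6 of the 35299 loci in the deposited table. Atp2a2 was taken as locus XLOC_024825. Each of the other 5 was taken as the locus with a UCSC model and the highest mean count that overlaps a given mm9 interval. Only the Pln interval held a second candidate, Cep85l, with a mean of 3670 normalised counts against 767053 for Pln. At each of the 6 loci the intron lengths of a UCSC model, in order, equalled those of a GENCODE transcript of the same name on the same chromosome and strand, and of no other gene.

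All libraries belong to 1 group, Sham. The tissue was heart of C57BL/6J mice aged 12 weeks, collected 2 weeks after sham surgery at the position of an infarct border. Poly(A)-selected RNA of 4 biological replicates was sequenced as paired reads of 100 bases. The description of replicate 4 leaves out the word sham, while its title, source and treatment give it. The columns 3RL, 7LR, 8R and 12RL carry no replicate number, so it is not known which of them is replicate 4, and there is no second group to compare with. The libraries held 108345923 to 160670654 recovered reads, and no member had fewer than 38809 in any library, so counting error was small beside the spread between hearts.

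With each beat, calcium enters through the L-type channel, whose pore is encoded by Cacna1c, and opens the ryanodine receptor Ryr2 in the sarcoplasmic reticulum. Calcium stored there on calsequestrin, the product of Casq2, is released and drives contraction. The pump SERCA2, encoded by Atp2a2 and held back by the small peptide phospholamban (Pln), then returns most of it to the store, and the sodium-calcium exchanger Slc8a1 carries the rest out of the cell.

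The tissue carried the marks of ventricle. Of the heart muscle markers listed, Myl2, the ventricular regulatory light chain, had a mean of 980233 ± 103400 normalised counts (SD, n = 4) and Actc1, cardiac actin, had 1388903 ± 227778. The atrial markers Sln and Myl7 had 0 to 6.31 and 2.27 to 118 counts in the 4 libraries. Both were highest in 12RL, and Myl7 had 11.9, 12.5 and 2.27 in 3RL, 7LR and 8R. Nppa, an atrial peptide that stressed ventricle also makes, had 15578 to 18866 and was highest in 8R. Other cell types were present. The summed counts ran from 68758 to 78439 for 3 of 3 fibroblast markers, from 53667 to 73032 for 2 of 2 endothelial markers and from 16380 to 23241 for 2 of 2 smooth muscle markers. Ptprc, the 1 immune marker with a locus of its own, had 856 to 1203 counts. The fibroblast, endothelial and smooth muscle sums were highest in 3RL, the fibroblast sum by little (77889 in 8R). Col1a1, Acta2 and the endothelial markers Pecam1 and Cdh5 were highest in 3RL. Dcn was highest in 8R, and Pdgfra and Myh11 were highest in 12RL. The part of these cell types in the values below was not tested. In bulk tissue, fewer cells of a type and less RNA per cell cannot be told apart.

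Phospholamban is shown first as sequence because it is the smallest product of the 6, a peptide of 52 residues whose level is set against its target pump below. Its coding sequence in GENCODE vM21 (GRCm38, chr10:53343864-53344022, plus strand) is 159 bases long and lies in exon 2 of 2, with the start and stop codons in capitals.
Pln coding sequence: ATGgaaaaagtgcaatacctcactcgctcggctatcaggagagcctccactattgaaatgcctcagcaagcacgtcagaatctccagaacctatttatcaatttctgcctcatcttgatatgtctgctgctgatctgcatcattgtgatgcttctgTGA

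The RefSeq promoter table (GRCm38.p6, 250 bases before to 50 after each start) held 7 entries for 5 of the 6 genes and none for Atp2a2. Promoters of Casq2, Pln and Ryr2 are shown because these genes took different courses across the libraries, as described below. They lie at chr3:102086165-102086464 (plus strand), chr10:53337436-53337735 (plus strand) and chr13:12106896-12107195 (minus strand). Capitals mark matches, on either strand, to the MEF2 and CArG motifs, to the E-box, to the GATA motif and to the TATA motif. The E-box was searched as CANNTG. The GATA factor motif was searched with the letters AGATAA, and the promoter element bound by the general factor TBP was searched with the letters TATAAA. No matches overlapped within these 3 windows.
Casq2 promoter: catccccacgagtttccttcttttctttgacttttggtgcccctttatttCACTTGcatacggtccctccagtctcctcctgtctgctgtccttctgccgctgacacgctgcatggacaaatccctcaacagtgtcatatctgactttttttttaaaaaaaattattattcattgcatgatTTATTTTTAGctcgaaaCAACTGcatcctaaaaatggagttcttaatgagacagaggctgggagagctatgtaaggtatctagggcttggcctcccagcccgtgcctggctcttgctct
Pln promoter: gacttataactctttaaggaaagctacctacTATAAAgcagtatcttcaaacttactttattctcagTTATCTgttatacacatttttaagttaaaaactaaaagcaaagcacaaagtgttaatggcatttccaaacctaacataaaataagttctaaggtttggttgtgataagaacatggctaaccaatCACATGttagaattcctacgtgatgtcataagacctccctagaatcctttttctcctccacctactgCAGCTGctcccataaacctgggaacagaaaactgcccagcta
Ryr2 promoter: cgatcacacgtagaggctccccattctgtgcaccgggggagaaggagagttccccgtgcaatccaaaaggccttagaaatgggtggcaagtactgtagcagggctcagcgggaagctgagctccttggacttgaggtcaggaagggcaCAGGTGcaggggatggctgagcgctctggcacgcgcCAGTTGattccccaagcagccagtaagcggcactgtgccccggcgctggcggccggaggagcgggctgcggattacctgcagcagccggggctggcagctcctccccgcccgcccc

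These windows differed in composition. Guanine and cytosine made up 36% of the Pln window, 44.7% of the Casq2 window and 65.3% of the Ryr2 window, against a median of 52.7% over 32851 promoters. The Casq2 window held a MEF2 motif at position -69 from the start, a motif that 3.19% of all promoters hold and none of the other 6 entries of these genes did. In the Pln window the GATA motif lay on the minus strand at -183 and the TATA motif at -219, motifs held by 11.2% and 13.6% of all promoters. E-boxes were in all 7 entries and in 72.3% of all promoters, and the CArG motif was in 0 of 7 and in 1.63%. A match describes the letters only, and no link between promoter letters and the courses across the libraries was tested.

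The pump and its inhibitor were the most abundant of the 6. Atp2a2 (XLOC_024825, mm9 chr5 122903523 to 122952355, minus strand) had 2425212, 2568073, 2690146 and 2695098 normalised counts in 3RL, 7LR, 8R and 12RL. The lowest and highest libraries differed 1.11-fold, and the locus ranked 2 among all nuclear loci by count. Pln (chr10 52900808 to 53065787, plus strand) had 725772, 756819, 812015 and 773607 in 3RL, 7LR, 8R and 12RL, rank 11 among nuclear loci. Library 3RL was the lowest for both genes, by little.

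The release genes came next. Ryr2 (chr13 11635682 to 12201262, minus strand) had 316127, 423410, 294346 and 473182 counts in 3RL, 7LR, 8R and 12RL. Libraries 7LR and 12RL were both above 3RL and 8R, and the highest was 1.61 times the lowest. Casq2 (chr3 101889827 to 101962215, plus strand) had 147135, 130369, 155306 and 136931 in 3RL, 7LR, 8R and 12RL. For this gene the same pair of libraries lay below the others, and the highest value was 1.19 times the lowest.

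The genes of the surface membrane had the fewest counts. Cacna1c (chr6 118536205 to 119146349, minus strand) had 47902, 61161, 44120 and 64951 counts in 3RL, 7LR, 8R and 12RL. Its order of libraries was that of Ryr2, with a 1.47-fold range. Slc8a1 (chr17 81772445 to 82138966, minus strand) had 63143, 70071, 59657 and 72682 in 3RL, 7LR, 8R and 12RL. It kept that order too, over a smaller range of 1.22-fold. Together the 6 loci took 2.34% ± 0.144 of all counts (SD, n = 4), of which Atp2a2 alone took 1.52% ± 0.0707.

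Levels of different genes can be set against each other only per length. Per kb of the longest spliced UCSC model, the order was Atp2a2, Pln, Casq2, Ryr2, Cacna1c and Slc8a1. Atp2a2 had 481022 ± 23602 normalised counts per kb (SD, n = 4) and Pln had 331484 ± 15528. Casq2 had 69110 ± 5342 and Ryr2 had 22409 ± 5087. Cacna1c had 8377 ± 1549 and Slc8a1 had 3569 ± 324. Among 13251 loci with a UCSC model and a mean of 50 or more, these levels ranked 14, 18, 99, 348, 907 and 2187. No neighbours in the order overlapped in their ranges, and each gene was above the next in 4 of 4 libraries.

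**Figure D1:**
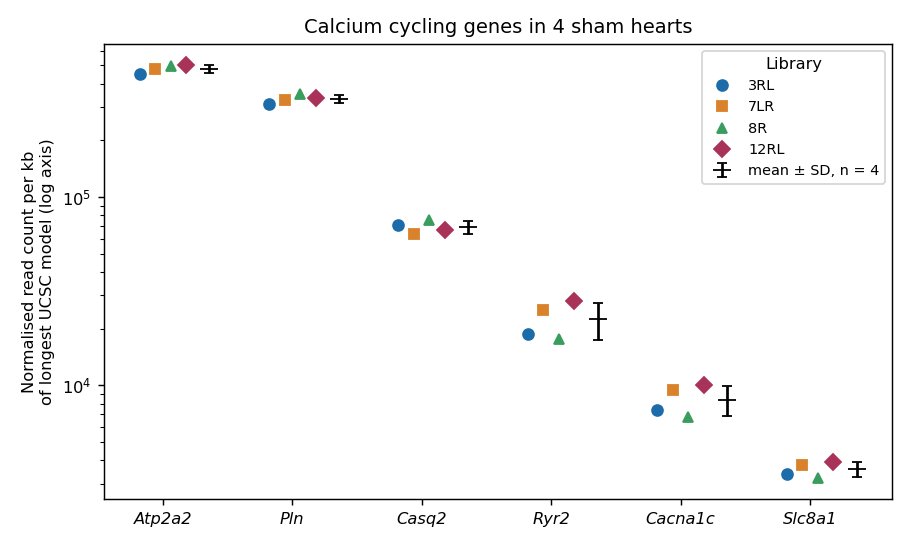
Normalised read count per kb of the longest UCSC model (log axis) for each of the 6 genes, with 1 point per library and the mean ± SD of 4 libraries beside them. The levels fall from 481022 per kb for Atp2a2 to 3569 for Slc8a1, and neighbouring genes do not overlap.

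The smallest step in that order was from Atp2a2 to Pln, a 1.45-fold difference (log2 difference 0.54 ± 0.03, SD, n = 4). The largest was from Pln to Casq2, 4.80-fold. Casq2 was 3.14-fold above Ryr2, Ryr2 2.66-fold above Cacna1c and Cacna1c 2.32-fold above Slc8a1. An exact two-sided sign-flip test over the 4 libraries gave p = 0.13 for each of the 5 neighbour pairs, before and after Benjamini-Hochberg adjustment, which is the smallest value that 4 libraries allow. The order of Casq2 and Ryr2 and the size of every step rested on the length used. Per kb of the longest UCSC model the log2 differences were 0.54, 2.26, 1.65, 1.41 and 1.22 down the order. Per kb of the longest model of any kind they were 0.77, 4.10, 0.34, 1.78 and 0.17. The smallest step was then from Cacna1c to Slc8a1. With the longest model of any kind as the length, Casq2 was above Ryr2 in 3 of 4 libraries (16379 ± 1266 against 13196 ± 2995 per kb), and with the median UCSC model Ryr2 was above Casq2 (76501 against 69110 per kb).

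The ratio of inhibitor to pump varied little from heart to heart. Pln per kb relative to Atp2a2 per kb was 0.698, 0.687, 0.704 and 0.669 in 3RL, 7LR, 8R and 12RL, with a mean of 0.689 ± 0.0151 (SD, n = 4). The CV of this ratio was 2.20%. Scaling between libraries cancels in such a ratio. The likeness of these genes is not particular to them: of 13250 other loci, 153 lay closer to Atp2a2 than Pln did by the root mean square distance of log2 deviations over the 4 libraries, and the distance from Pln to Atp2a2 was 0.0276.

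The ratio of release channel to store buffer varied much more. Ryr2 per kb relative to Casq2 per kb was 0.263 in 3RL and 0.232 in 8R, and it was 0.398 in 7LR and 0.424 in 12RL. The highest ratio was 1.82 times the lowest, more than the range of either gene alone, since Ryr2 was high where Casq2 was low. The mean was 0.329 ± 0.0955 (SD, n = 4). Ryr2 and Casq2 fall in different classes of spliced length, whose median deviations had opposite signs in every library, as given below. A ratio does not cancel that difference, and its part in this spread was not tested. At the surface membrane, Slc8a1 per kb relative to Cacna1c per kb was 0.461, 0.401, 0.473 and 0.392 in 3RL, 7LR, 8R and 12RL, with a mean of 0.432 ± 0.0414. Ryr2 relative to Cacna1c, a ratio chosen after the values were seen, was 2.56, 2.68, 2.58 and 2.82 in 3RL, 7LR, 8R and 12RL, a CV of 4.51%.

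**Figure D2:**
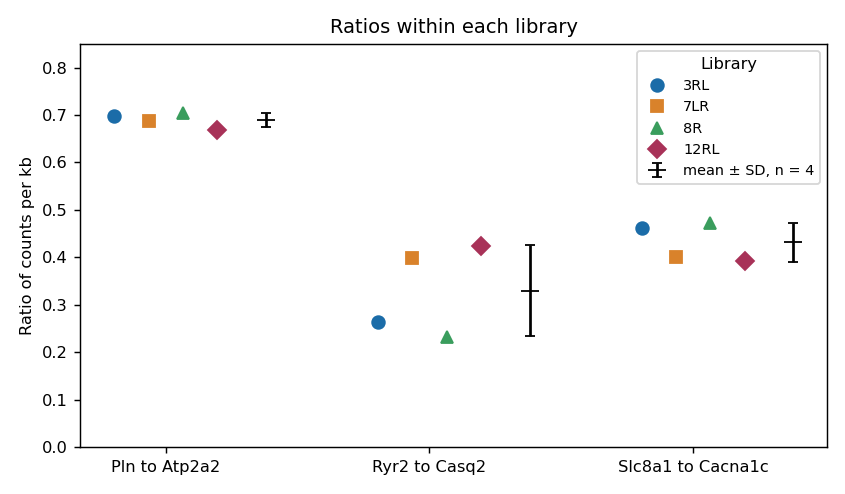
Ratio of normalised counts per kb of 2 genes within each library for the 3 planned pairs, with the mean ± SD of 4 libraries. Pln to Atp2a2 stays between 0.669 and 0.704, while Ryr2 to Casq2 runs from 0.232 in 8R to 0.424 in 12RL.

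The spread between hearts divided the genes. The CV over the 4 libraries was 4.91% for Atp2a2 and 4.68% for Pln, 7.73% for Casq2 and 9.08% for Slc8a1, all under the median of 10.6% over 14424 loci with a mean of 50 or more. It was 18.5% for Cacna1c and 22.7% for Ryr2, both above the upper quartile of 16.5%. A CV of 20% or more was found in 1 of the 6, Ryr2, and in 17.3% of all those loci. Without 8R Ryr2 had 19.9%, and Cacna1c had 21.2% without 7LR and 21.4% with libraries scaled to equal table totals. By Dixon's ratio no member had 1 library standing apart, where 3.15% of all loci had one apart upward and 1.45% downward.

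The course across the libraries was set beside that of loci of like spliced length. The log2 deviation of Ryr2 from its mean was -0.23, 0.20, -0.33 and 0.36 in 3RL, 7LR, 8R and 12RL. The median deviations of the 368 loci over 8 kb, the class of Ryr2 and Slc8a1, were -0.11, 0.15, -0.18 and 0.15 in the same libraries. Ryr2 thus went the same way as long loci but further, at percentile 93.5 of its class in 12RL and 15.5 in 8R. Slc8a1 deviated by -0.07, 0.08, -0.15 and 0.14 and lay within the quartiles of that class in all 4 libraries.

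Cacna1c went beyond loci of its class by longest UCSC model, 4 to 8 kb. Its deviations were -0.17, 0.18, -0.29 and 0.27 in 3RL, 7LR, 8R and 12RL, where the medians of the 3193 loci of 4 to 8 kb were -0.02, 0.04, -0.05 and 0.03. It lay outside the quartiles of that class in every library, at percentile 7.30 in 8R and 95.3 in 12RL. By its GENCODE length of 13.2 kb and assembled length of 14.3 kb, Cacna1c would fall in the class over 8 kb. Set beside that longer class, its values in 3RL and 7LR lay within the quartiles (-0.19 to -0.02 and 0.07 to 0.23). Those in 8R and 12RL lay outside (-0.27 to -0.11 and 0.05 to 0.23). Atp2a2, in the class of 4 to 8 kb by its longest UCSC model, deviated by -0.10, -0.01, 0.05 and 0.06. Its value in 8R was positive where the class was negative, but the signs of Atp2a2 and Pln in 7LR and 8R turned when the libraries were scaled to equal table totals, and that of Atp2a2 in 7LR also with TMM scaling.

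Of the genes of 2 to 4 kb, Casq2 had the signs of its class and Pln did not in all libraries. Casq2 deviated by 0.05, -0.12, 0.13 and -0.05 in 3RL, 7LR, 8R and 12RL, and the medians of the 5963 loci of 2 to 4 kb were 0.02, -0.03, 0.05 and -0.03. Pln deviated by -0.08, -0.02, 0.08 and 0.01, opposite in sign to the class in 3RL and 12RL. Of the 24 deviations of the 6 genes, 20 had the sign of their class median and 12 lay within the quartiles of the class. By their definition, quartiles hold that same share of a class as a whole. When the class medians were taken off, the range over the libraries fell for 5 of the 6, from 0.68 to 0.35 for Ryr2, from 0.28 to 0.10 for Slc8a1, from 0.25 to 0.17 for Casq2, from 0.56 to 0.48 for Cacna1c and from 0.16 to 0.15 for Pln, all on the log2 scale. For Atp2a2 it rose from 0.15 to 0.18. How many of all loci have the sign of their class median, or a smaller range after this step, was not counted. These counts therefore describe the 6 genes only. With classes by the longest model of any kind, the ranges of Casq2 and Pln rose to 0.38 and 0.18 instead. That of Ryr2 fell only to 0.57, that of Slc8a1 to 0.17 and that of Cacna1c to 0.44, while that of Atp2a2 stayed at 0.15. Whether RNA length or a difference between the hearts set these deviations was not tested.

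**Figure D3:**
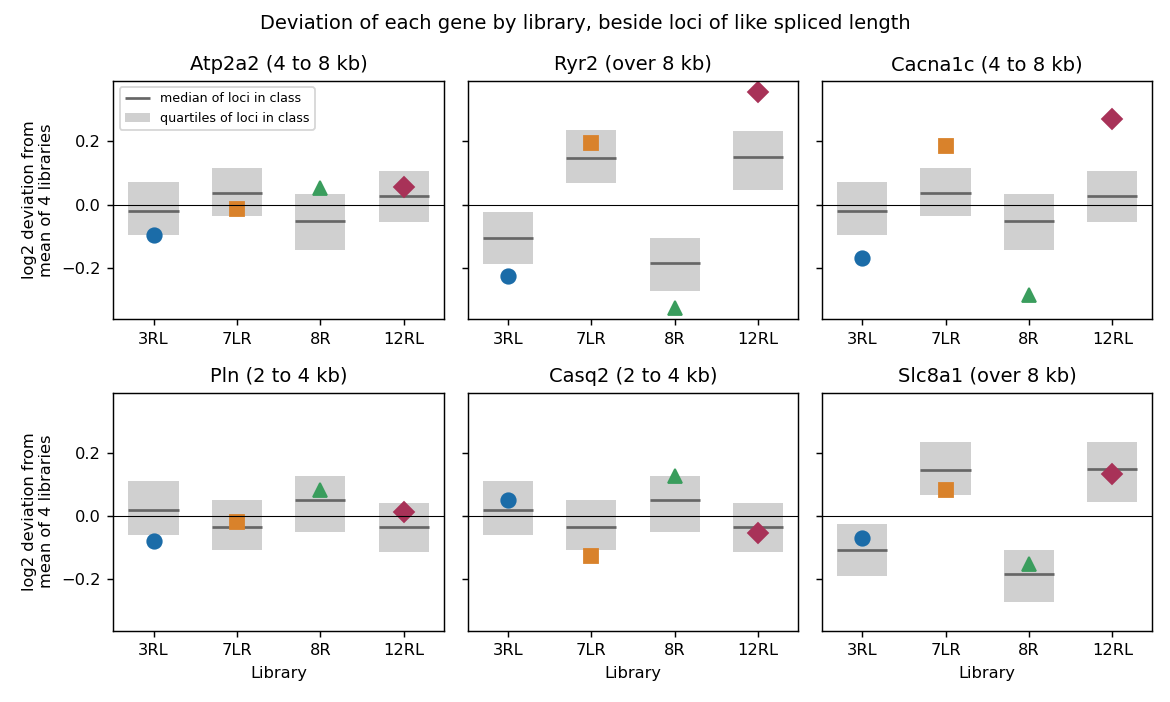
Log2 deviation of each gene from its mean over the 4 libraries, 1 panel per gene with its class of spliced length, over the quartiles (grey bars) and median (grey lines) of all loci of that class with a mean of 50 or more. Ryr2 and Cacna1c lie furthest from 0, at 0.36 in 12RL and -0.29 in 8R, while Slc8a1 stays inside the grey bars.

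The order of the libraries was also counted, from the same values as the deviations above. Both 7LR and 12RL were above both other libraries for 3 of the 6 genes (Ryr2, Cacna1c and Slc8a1) and for 19.1% of all 14424 loci. By class this share was 7.23% up to 1 kb, 6.69% at 1 to 2 kb, 12.2% at 2 to 4 kb, 34.8% at 4 to 8 kb and 72.3% over 8 kb. Both libraries were below for 1 of the 6 (Casq2), for 33.4% of all loci and for 34.9% of those of 2 to 4 kb. The pattern was chosen after the values were seen.

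By deviations over the 4 libraries, the locus nearest to each member was found among 13250 loci with a UCSC model, and the many loci at like distance make it a weak label. For Ryr2 it was the locus at chr13 93810677 to 93962806, with 158401, 211923, 149006 and 242126 counts in 3RL, 7LR, 8R and 12RL, at a distance of 0.0129. For Cacna1c it was chr17 66314903 to 66426386, at 0.00838. For Atp2a2 it was chr19 60836342 to 60868251, at 0.00674, and for Pln chr11 60527651 to 60540723, at 0.00780. For Casq2 it was chr7 51697103 to 51727867, at 0.00112, and for Slc8a1 chr6 58781447 to 58870390, at 0.00517. Among the members, Ryr2 and Cacna1c were at 0.0558 from each other, and 34 other loci were closer to Ryr2. The members farthest apart were Ryr2 and Casq2, at 0.373.

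The transcript models assembled from reads reached past the UCSC 3′ ends of 3 of the 6 genes. For Ryr2 they ended 9.69 kb further 3′, in a last exon of 11.2 kb against 1.51 kb, and the longest spliced model grew from 16.8 to 28.6 kb with 105 exons in both. For Cacna1c they ended 7.71 kb further 3′, with a last exon of 8.01 kb against 0.303 kb, and the longest model grew from 6.51 to 14.3 kb with 47 exons in both. For Casq2 they ended 12.0 kb further 3′, with 13 exons against 11, and the longest model grew from 2.06 to 8.70 kb. Pln and Slc8a1 had an extension of 0 at that end, and the UCSC last exon of Slc8a1 was already 16.0 kb long. Atp2a2 also had 0, but this value was fixed in advance. Its 1 assembled model, of 3 exons and 0.544 kb, lay at the 5′ end and could not show a 3′ extension.

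Shorter extensions were common in these libraries, with a median of 1449 bases. An extension of 1 kb or more was found in 3 of the 6 genes and in 58.7% of 7244 loci with an assembled isoform and a mean of 10 or more. One of 5000 bases or more, a limit chosen after the values were seen, was found in the same 3 genes and in 15.6% of the 7244 loci. The longest GENCODE vM21 transcript was 13.2 kb for Cacna1c, near the assembled length, but 16.8 kb for Ryr2 and 2.56 kb for Casq2, near the UCSC lengths. The count table holds 1 value per locus, so how many reads fell on the extended ends is not known. Per kb of the longest model of any kind, Cacna1c had 3810 ± 704 normalised counts (SD, n = 4) and Slc8a1 had 3348 ± 304, a log2 difference of 0.17 in place of 1.22, with Cacna1c above in 4 of 4 libraries.

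**Figure D4:**
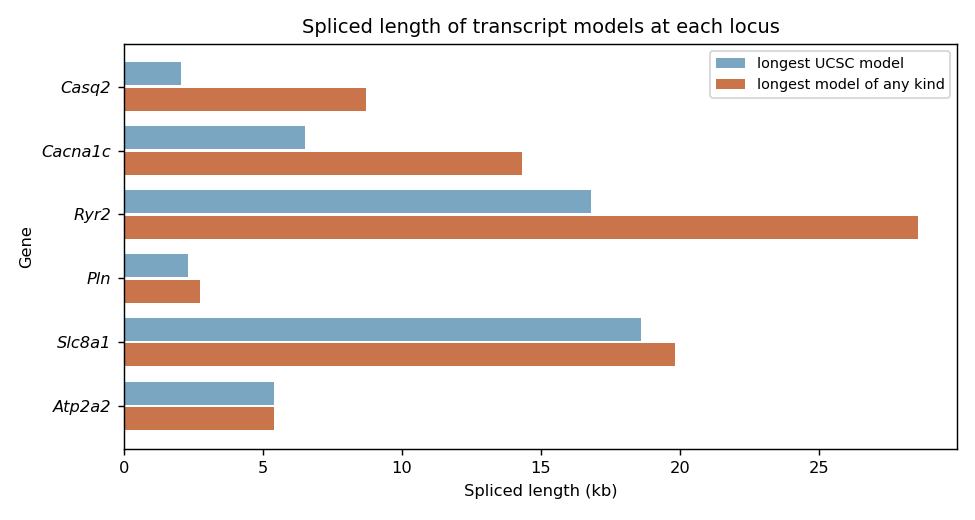
Spliced length in kb of the longest UCSC model and of the longest model of any kind at each locus, ordered by their ratio. Casq2 grows from 2.06 to 8.70 kb, Cacna1c from 6.51 to 14.3 kb and Ryr2 from 16.8 to 28.6 kb. Both bars of Atp2a2 show its UCSC model, because its 1 assembled model is only 0.544 kb long.

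The Pln locus reached far upstream of the gene itself. Its 1 UCSC model spans chr10 53057513 to 53065787 and has 2 exons, while an assembled isoform of 4 exons starts at 52900808, 157 kb upstream. Through it 5 intergenic assembled models of 2 to 4 exons joined the locus, so the count of Pln includes their reads, in a share that is not known. Cep85l, on the other strand around Pln, shared 0 exon bases with it and had 3670 ± 494 counts (SD, n = 4), 0.478% of the Pln mean.

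Other loci touched the members little. At the 3′ end of Atp2a2, Anapc7, a subunit of the anaphase-promoting complex on the other strand, shared 101 exon bases and had 0.226% of its mean count. At its start an antisense locus without a UCSC model shared 550 exon bases and had 195 ± 32.3 counts (SD, n = 4). The extended end of Casq2 shared 3028 exon bases with Vangl1, a planar polarity gene on the other strand with 779 ± 63.8 counts, or 0.547% of the Casq2 mean. The strand setting of the counts is not known, so reads in shared bases cannot be told apart.

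At Atp2a2 the 2 UCSC models share 20 exons and differ in 1, which is 1534 bases long in one and 124 bases in the other with the same 5′ boundary on the minus strand (mm9 chr5 122907435). As background, the SERCA2a and SERCA2b proteins arise from splicing near the 3′ end of this gene. The table has no count per isoform. The other members had more models: 6 for Ryr2, 9 for Cacna1c, 7 for Slc8a1 and 4 for Casq2, starting from 3, 5, 5 and 2 groups of start sites.

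The other calcium handling genes of a list of 19 were read from the same table. Of these, 17 had a locus of their own with a mean of 50 or more. S100a1 shared a merged locus with Chtop and got no value, and Sln, a pump inhibitor of atrium, had a mean of 3.34 counts. The listed genes of the store and the release channel covered a wide range, down to Fkbp1b at 64.5 normalised counts per kb, described below. Hrc, a calcium-binding protein of the store, had 79012 ± 7374 normalised counts per kb (SD, n = 4), where Casq2 had 69110. Srl, encoding sarcalumenin, had 39663 ± 1470, and Jph2, which ties the store to the surface membrane, had 35756 ± 3559. Trdn, encoding the triadin that links Ryr2 to calsequestrin, had 16624 ± 983, and Asph, which also encodes junctin, had 4768 ± 246. These levels rest on the length too: per kb of the longest model of any kind, Hrc still had 79012, while Srl had 14033, Jph2 had 8400, Trdn had 5695 and Casq2 had 16379.

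Casq1 and Itpr2 were far below the members they are related to, Casq2 and Ryr2. Casq1, the calsequestrin of skeletal muscle, had 992 ± 109 normalised counts per kb, and Itpr2, an inositol trisphosphate receptor, had 374 ± 74.7, where Casq2 had 69110 and Ryr2 22409. Fkbp1b, encoding a small protein bound to Ryr2, had 64.5 ± 13.8 from a mean of 63.2 counts, and Ppp1r1a, a phosphatase inhibitor, had 116 ± 14.4. Of the channel subunits around Cacna1c, Cacna2d1 had 7167 ± 1073 and Cacnb2 had 2488 ± 315, where Cacna1c had 8377. Per kb of the longest model of any kind, Cacna2d1 had 4331 and Cacna1c had 3810. The surface pumps Atp2b1 and Atp2b4 had 2313 ± 146 and 1306 ± 217 per kb of the longest UCSC model, both below Slc8a1, the other route out of the cell.

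By their means Calm2 and Calm3, which encode the calcium sensor calmodulin, lay between Ryr2 and Cacna1c. They had 9901 ± 1224 and 9963 ± 752 normalised counts per kb of the longest UCSC model (SD, n = 4), with spreads that overlapped. In 12RL, however, Cacna1c was above both, with 9977 against 8491 for Calm2 and 9203 for Calm3. Camk2d, the calmodulin kinase that phosphorylates Pln and Ryr2, had 4919 ± 253, and Mcu, the mitochondrial calcium channel, had 1023 ± 64.3.

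The spread of these genes across the hearts was counted as for the members. Of the 17, 8 had a CV above the median of all loci, 1 (Fkbp1b, 21.4%) had a CV of 20% or more, against 17.3% of all loci, and none had a library standing apart, against 3.15% upward and 1.45% downward. Libraries 7LR and 12RL were both above the other libraries for 5 of the 17 (Cacna2d1, Cacnb2, Atp2b1, Atp2b4 and Itpr2), against 19.1% of all loci, and both below for 7, against 33.4%. Itpr2, the longest of these by its UCSC model at 8.33 kb, had 2723, 3555, 2459 and 3734 normalised counts in 3RL, 7LR, 8R and 12RL. Trdn, with 3.05 kb, had 46513, 50555, 53307 and 52306 in 3RL, 7LR, 8R and 12RL, and so did not share the order of Ryr2. Lengths did not sort these genes cleanly. Cacnb2 had 7LR and 12RL above with a UCSC model of 3.485 kb. By the longest model of any kind Trdn had 8.90 kb, Jph2 11.4 kb and Srl 14.1 kb, and none of them had that pattern. A link between length and order was not tested.

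**Figure D5:**
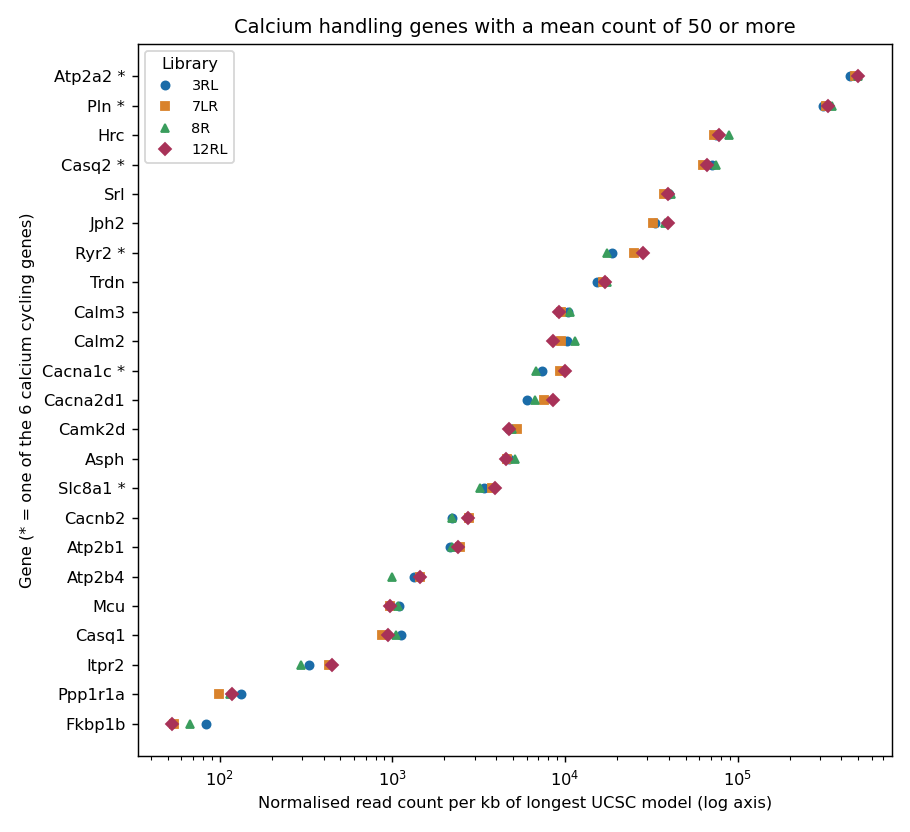
Normalised read count per kb of the longest UCSC model (log axis) in each library for the 6 genes (marked with *) and the 17 other listed genes with a mean of 50 or more. Atp2a2 and Pln lie at the top, Hrc and Casq2 come next on this length, and Fkbp1b is lowest at 64.5 per kb.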

How the data were processed

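Poly(A) RNA of 4 Sham hearts was measured. The authors deposited a signal table, read counts per locus divided by 1 size factor per library, and the exon positions of transcript models, which are other values, on mm9. DESeq, HTSeq 0.5.4p2, Cufflinks 2.0.2 and TopHat2 2.0.5 are named, per the submitters' processing notes. The sources used here do not give a strand setting or counting mode, so levels of overlapping loci and near-identical copies are uncertain.

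The deposited signal values were whole multiples of 1 step per library within 0.001 in 100% of loci, which gave the recovered reads. Libraries carry no replicate number, and p-values measure only the spread between them. Gene names were given where every intron length of a UCSC model equalled those of a GENCODE vM21 transcript on the same chromosome and strand. This held at 19301 of 26078 loci, 1107 of them with several symbols, which got no name, except that loci joining several genes may show 1 symbol. No coordinate was converted. Log2 deviations used a pseudocount of 1. Loci with a mean of 50 or more formed the background, in length classes bounded at 1, 2, 4 and 8 kb. Steps were tested on simulated data. Other scalings, lengths, filters and left-out libraries were tried. The named genes are the members, overlapping loci, nearest loci (by position) and the list, all chosen with earlier results of these data known. One further gene first listed is not reported here. TMM and dispersion used edgeR 4.0.16 in R 4.3.3, and other steps Python 3.11.15, numpy 2.4.6, pandas 2.3.3 and scipy 1.17.1. Counting error covers reads only, which are not independent molecules.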

Additional observations from a re-analysis of the deposited data

How the results depend on the processing

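Length was the choice that moved most values. The ratio of Pln to Atp2a2 was 0.599 with the median UCSC model, 0.585 with the longest model of any kind and 0.719 with the longest GENCODE transcript. The ratio of Ryr2 to Casq2 was 1.12 and 0.818 with the first 2 of these, and that of Slc8a1 to Cacna1c was 0.474 with the union of UCSC exons, 0.800, 0.891 and 0.879 with the 3 in turn. Counts not divided by length left 2 of the 6 genes in their place. The share of counts was 3.38% without mitochondrial loci, because the denominator shrinks. The longest model of any kind, the GENCODE length, the thresholds of the 3′ extension and the classes by any model were chosen after seeing the data. Leaving out each library kept the ratios of Ryr2 to Casq2 between 0.298 and 0.362. The locus choice, the count of 0 loci with a library apart, the 3 extended genes and the 2 genes above the median CV (3 with equal table totals or without 7LR, the added one being Slc8a1) stayed within 1.5 times in all alternatives run. Equal table totals gave Slc8a1 a CV of 12.6%, and leaving out 3RL gave Atp2a2 2.71% in place of 4.91%. No paired analysis was possible because a single group leaves nothing to pair. Depth limits Sln and Fkbp1b, the genes with the fewest counts here.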
